A study of Mus musculus with 10 samples.

Results

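The respiratory chain of mouse muscle stem cells was described here gene by gene, with the genes encoded in the nucleus set against those encoded in the mitochondrial genome. Members were chosen by symbol: names beginning with Nduf, Uqcr, Sdha to Sdhd, Cox and a digit, or Atp5, the genes Cyc1 and Cycs, and the mitochondrial protein genes that the table writes in capitals. The rule found 118 of the 12803 rows, of which 107 were nuclear and 11 mitochondrial. The 107 nuclear rows stand for 106 symbols because Ndufa13 is listed on 2 rows. Every row was tested and none was removed for a low level. The rule used symbols and no expression value, but it was set with earlier results of these data known.

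The respiratory chain passes electrons from NADH and succinate to oxygen through complexes I to IV, in the inner mitochondrial membrane, and the proton gradient it builds drives ATP synthase, called complex V. Most subunits, and all subunits of complex II and the carrier cytochrome c, are encoded in the nucleus and imported. The mitochondrial genome, which is copied and transcribed by its own machinery as long polycistronic RNAs, encodes a few membrane subunits of complexes I, III, IV and V. Muscle stem cells in resting muscle are quiescent and have few mitochondria, and they enlarge and enter the cell cycle once activated.

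The cells came from male C57BL/6 mice, with a single animal per replicate, and were sorted from limb muscle as negative for CD45, CD31 and Sca1 and positive for VCAM. They were either frozen straight after sorting (fresh, 0 h, 3 libraries) or kept for 24 h in medium with 10% horse serum and an equal volume of the solvent DMSO (vehicle, 3 libraries) or 40 µM Tubastatin A (4 libraries), a hydroxamate inhibitor of the tubulin deacetylase HDAC6. All animals were of 1 strain and sex, and all cultured groups shared the serum medium and the coated plates. Culture is part of both comparisons with fresh cells, and the effects of isolation, medium and time in culture cannot be told apart in it.

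The libraries held 37772821 to 55617317 reads in the table, and 1 read in a gene of 1 kb was worth 0.0160 to 0.0339 RPKM (reads per kilobase of gene, scaled to library size, the unit of every level below). The reads in the table were 1.40 to 1.42 times the library size used in the RPKM of fresh libraries and 0.834 to 0.933 times that of cultured libraries, so these RPKM are not shares of all reads. Scaling every library to the same sum of RPKM instead moved the median log2 difference over all genes from -0.03 to 0.44 for vehicle against fresh, from 0.02 to 0.13 for Tubastatin A against vehicle, and from -0.03 to 0.56 for Tubastatin A against fresh. In that order, the split of calls over all genes went from 4096 higher and 4484 lower to 6333 and 2917, from 3796 and 3798 to 4463 and 3357, and from 3811 and 4503 to 7038 and 2505. Below, this scaling is called equal sums. Markers of the labelled cell type were present in fresh cells: Pax7, the transcription factor that defines satellite cells, stood at 22.4 ± 9.48 RPKM in fresh, 4.73 ± 0.609 in vehicle and 2.14 ± 0.399 in Tubastatin A cells, and Vcam1, the sorting marker, at 180.2 ± 13.7 RPKM in fresh, 34.0 ± 2.24 in vehicle and 4.36 ± 0.417 in Tubastatin A cells. Summed levels of 9 satellite cell markers ran from 2251 to 3241 RPKM in fresh, 1555 to 1780.4 in vehicle and 782 to 861 in Tubastatin A libraries. Summed markers of other cells, in the same order of groups, were 38.5 to 49.2, 3.22 to 4.28 and 5.95 to 6.70 RPKM for 9 endothelial genes, 428 to 830.1, 40.8 to 48.2 and 9.21 to 17.9 for 8 fibroblast genes, and 10.2 to 21.6, 0.731 to 0.946 and 2.53 to 4.03 for 3 immune genes. For 14 myofibre genes the sums were 97.5 to 129 RPKM in fresh, 68.3 to 94.5 in vehicle and 8.41 to 9.84 in 3 of the Tubastatin A libraries, with replicate 2 apart at 427. With Tubastatin A against vehicle, the myofibre, fibroblast and endothelial sums did not stand for most of their genes. Of the 14 myofibre genes 8 had positive and 6 negative log2 differences (median 0.18), with Eno3 lowest at -3.49. Of the 8 fibroblast genes 4 were positive and 4 negative (median -0.01), with Col3a1 lowest at -2.40. Of the 9 endothelial genes 4 were positive and 5 negative (median -0.03), with Tek highest at 1.48. The part of these markers in the differences below was not tested, and in bulk RNA fewer cells of a type and less RNA per cell cannot be told apart.

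After 24 h in vehicle the nuclear and the mitochondrial members had mostly moved in opposite directions. Of 107 nuclear rows, 63 were higher than in fresh cells, 12 lower and 32 not called at an adjusted p under 0.05, with a median log2 difference of 0.54 against -0.03 over all genes. Of all genes 67.0% were called, 32.0% higher and 35.0% lower, against 58.9% and 11.2% of the nuclear members. Of the 11 mitochondrial members 10 were lower (median log2 difference -1.04), and limma called 0 higher, as it did at an unadjusted p under 0.05 and with voom on recovered reads. Scaled to equal sums, the nuclear count became 92 higher and 5 lower, and the mitochondrial count 1 higher, which was ND1, and 5 lower. Without vehicle replicate 1 the nuclear count was 64 higher and 7 lower.

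Tubastatin A was compared with vehicle over the same 24 h. Here 54 nuclear rows were lower, 5 higher and 48 not called (median log2 difference -0.37, against 0.02 over all genes). The share called lower was 50.5%, where 59.3% of all genes were called, 29.7% lower and 29.6% higher. The 5 that were higher were Ndufa1, Cox19, Ndufaf3, Cox6b2 and the less abundant row of Ndufa13, of which Ndufa1 is named here after its values were seen. Without vehicle replicate 1 that number was 3. Of the mitochondrial members ND1 alone was called, lower, and limma called 0 higher, which was also the count at an unadjusted p under 0.05 and with voom. Without Tubastatin A replicate 2, the library with high myofibre markers, 46 nuclear rows were lower and 4 higher.

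Against fresh cells, Tubastatin A cells had 30 nuclear rows higher, 18 lower and 59 not called (median log2 difference 0.15, against -0.03 over all genes, of which 64.9% were called, 29.8% higher and 35.2% lower). All 11 mitochondrial rows were lower (median log2 difference -1.18). This comparison depended on fresh replicate 2 and on the scaling: without that library 54 nuclear rows were higher and 15 lower, and with equal sums 85 were higher and 6 lower, with 6 mitochondrial rows lower. Fresh replicate 2 held the highest fresh level of 99 of the 107 nuclear rows (92.5%), where it held the highest level of 35.3% of all genes. Vehicle replicate 1 held the lowest vehicle level of 91 rows (85.0%, against 42.0% of all genes), so most nuclear members were high or low together in the same animal's library.

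Vehicle is the reference of 1 comparison and the subject of the other, so the 2 sets of calls share its libraries and are given side by side only. Of the nuclear rows, 41 were higher in vehicle than in fresh and lower in Tubastatin A than in vehicle, and 22 were higher in vehicle with no call for Tubastatin A. Cox6b2 and the less abundant Ndufa13 row were lower and then higher, Sdha and Ndufb2 were lower in both, 8 rows were lower in vehicle only by call, 11 were lower and 3 higher with Tubastatin A only by call, and 18 were called in neither.

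**Figure D1:**
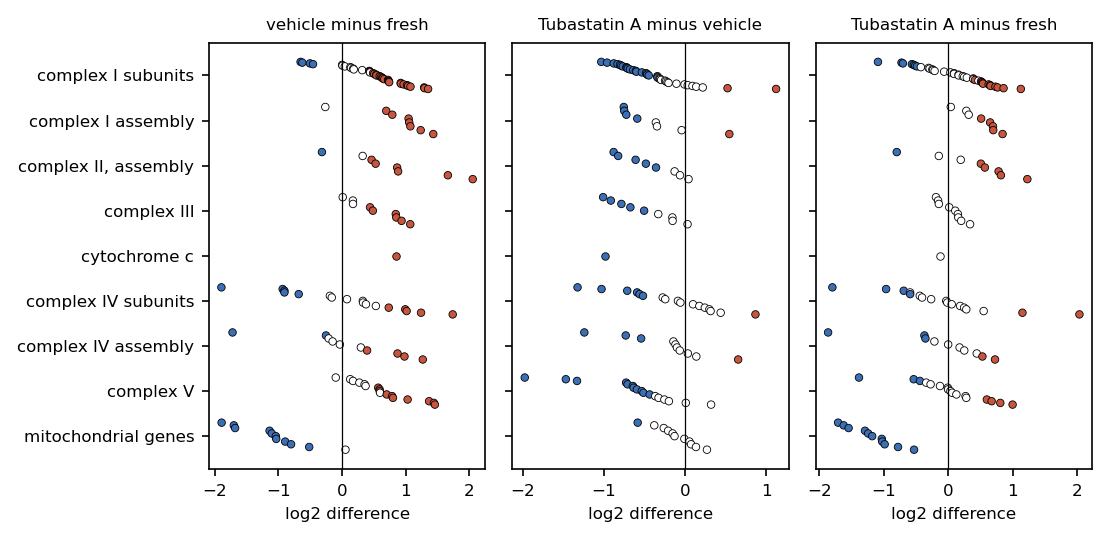
Log2 differences of log2(RPKM + 1) for each member (points), grouped by complex, for vehicle minus fresh, Tubastatin A minus vehicle and Tubastatin A minus fresh. Red points were called higher, blue points lower and white points not called. In the vehicle panel 63 nuclear members are red and 10 mitochondrial genes blue, and in the Tubastatin A against vehicle panel 54 nuclear members are blue.

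The mitochondrial genes fell into separate ranges of level. ND1, ND2, ND4, ND5 and ND6 of complex I, CYTB of complex III and COX1, the catalytic subunit of complex IV, stood between 56.1 and 1691 RPKM over the 10 libraries. COX2 and COX3 of complex IV, ATP6 of complex V and ND3 of complex I stood between 0.708 and 9.55 RPKM. The rule found no row for ATP8 or ND4L. In GENCODE M21 (build GRCm38) the 4 low genes are, of the 11 measured, the ones with a near-complete copy in the nuclear genome, in a block of unprocessed pseudogenes on the minus strand of chromosome 1. ND4L, which has no row, is copied there as well (Gm10222, 294 of 297 bases at 100% identity). Gm28661 (chr1:24614885-24615565) matches 681 of the 684 bases of COX2 at 100% identity, Gm10925 (chr1:24613974-24614651) 678 of 681 bases of ATP6 at 100%, Gm28437 (chr1:24613189-24613971) 783 of 784 bases of COX3 at 100% and Gm28438 (chr1:24612775-24613119) 345 of 348 bases of ND3 at 99.7%.

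Copies cover 63.6% of ND4 (Gm28439) and 31.3% of COX1 (Gm29216), and no copy of at least 100 bases at 98% identity was found for ND1, ND2, ND5, ND6 or CYTB. The start of COX2, on the plus strand of the mitochondrial genome from base 7013, and that of its copy are printed to show that reads within them cannot be told apart, and the start of ND3, from base 9459, to show the single base, in capitals, by which its copy differs (T3C, counted from base 1 of ND3).
COX2: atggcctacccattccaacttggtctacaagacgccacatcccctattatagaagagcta
Gm28661: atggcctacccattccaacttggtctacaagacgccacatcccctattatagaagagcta
ND3: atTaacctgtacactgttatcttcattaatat
Gm28438: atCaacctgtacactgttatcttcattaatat
How reads with several matches were counted is not given in the sources used here, so the levels of these 4 genes, and those of ND4 and COX1, are uncertain, and the part of the copies in them was not tested. ND6 lies on the other strand from its neighbours, and use of strand in counting is not stated either.

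**Figure D2:**
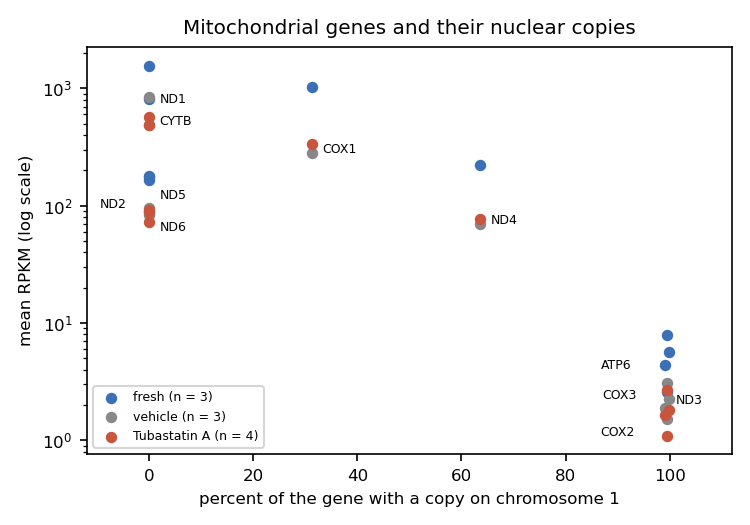
Mean RPKM (log scale) of each mitochondrial gene in fresh, vehicle and Tubastatin A cells against the percent of the gene that a chromosome 1 pseudogene copies. The 4 genes copied over more than 90% of their length have means below 9.55 RPKM and the other 7 above 56.1 RPKM.

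CYTB was the most abundant mitochondrial member in fresh cells. It was measured at 1519, 1691 and 1497 RPKM across fresh replicates, 448, 456 and 550.1 across vehicle and 465, 505, 577 and 389 across Tubastatin A replicates. Every cultured library lay below every fresh one, while vehicle and Tubastatin A overlapped. The log2 difference of CYTB was -1.70 (SE 0.19, adjusted p = 9.79e-06) for vehicle against fresh and -0.01 (adjusted p = 0.971) for Tubastatin A against vehicle, which turned to 0.11 with equal sums. COX1 behaved alike, with 1019.8, 1111 and 956 RPKM across fresh replicates, 267, 240.2 and 330.4 across vehicle and 372, 333, 406 and 245 across Tubastatin A replicates. Its log2 difference was -1.89 (SE 0.21, adjusted p = 7.40e-06) in vehicle and 0.27 (adjusted p = 0.261) between Tubastatin A and vehicle.

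ND4 fell from 222 ± 9.97 to 69.9 ± 16.5 RPKM in vehicle, with a log2 difference of -1.68 (adjusted p = 9.15e-06). ND5 and ND6 fell by 1.10 and 1.04 on the log2 scale, to 82.5 ± 17.1 and 87.9 ± 18.0 RPKM. ND2 fell less, from 165 ± 11.6 to 96.1 ± 24.0 RPKM (log2 difference -0.80, adjusted p = 0.00341), and under equal sums ND2, ND5 and ND6 were no longer called, with log2 differences of -0.20, -0.51 and -0.44. For Tubastatin A against vehicle a lower call of ND2 was made when any 1 of these libraries was left out: vehicle replicate 1 and Tubastatin A replicate 3 (adjusted p between 0.0421 and 0.0456). Among the 4 copied genes, log2 differences in vehicle ran from -1.14 for ATP6 to -0.52 for COX2, and those of COX2 and ND3 were not called with equal sums (log2 difference -0.16 and -0.56). The call of COX2 was lost when any 1 of these libraries was left out: fresh replicate 2, fresh replicate 3, vehicle replicate 1 and vehicle replicate 2 (adjusted p between 0.0705 and 0.115). The call of ND3 was lost when any 1 of these libraries was left out: fresh replicate 3 and vehicle replicate 2 (adjusted p between 0.0511 and 0.0517).

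ND1, the first protein gene after the ribosomal RNA genes, did not follow the others. It was measured at 736, 907 and 794 RPKM across fresh replicates, 770.2, 784 and 983 across vehicle and 579, 568, 661 and 454 across Tubastatin A replicates. Fresh and vehicle libraries overlapped, and the log2 difference was 0.05 (SE 0.20, adjusted p = 0.828), which became 0.66 (adjusted p = 0.00553) with equal sums. The Tubastatin A libraries lay below the vehicle and fresh libraries, with log2 differences of -0.58 (adjusted p = 0.0184) and -0.53 (adjusted p = 0.0266). The lower call against vehicle was lost without vehicle replicate 3 or Tubastatin A replicate 4 (adjusted p = 0.091 and 0.0611) and at a threshold of 1.5-fold, and with equal sums the log2 difference against fresh turned to 0.19. The lower call of ND1 against fresh was lost when any 1 of these libraries was left out: fresh replicate 2, fresh replicate 3, Tubastatin A replicate 1, Tubastatin A replicate 2 and Tubastatin A replicate 4 (adjusted p between 0.0527 and 0.0851).

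Shares within the mitochondrial genes do not depend on how libraries are scaled. ND1 made up 18.3, 20.2 and 19.8% of the summed mitochondrial RPKM in fresh libraries, 43.1, 44.0 and 42.8% in vehicle and 32.9, 32.6, 31.9 and 34.1% in Tubastatin A. The 3 groups did not overlap, with vehicle highest and Tubastatin A between vehicle and fresh. The share of CYTB was 37.6 ± 0.233% in fresh, 24.9 ± 0.827% in vehicle and 28.1 ± 1.25% in Tubastatin A cells, and that of COX1 24.7 ± 0.750%, 14.3 ± 0.720% and 19.6 ± 1.19%. The ratio of ND1 to CYTB, both without a chromosome 1 copy, was 0.517 ± 0.0282, 1.74 ± 0.0386 and 1.17 ± 0.0519 in the same order. These shares were not tested, because they were chosen after the values were seen.

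**Figure D3:**
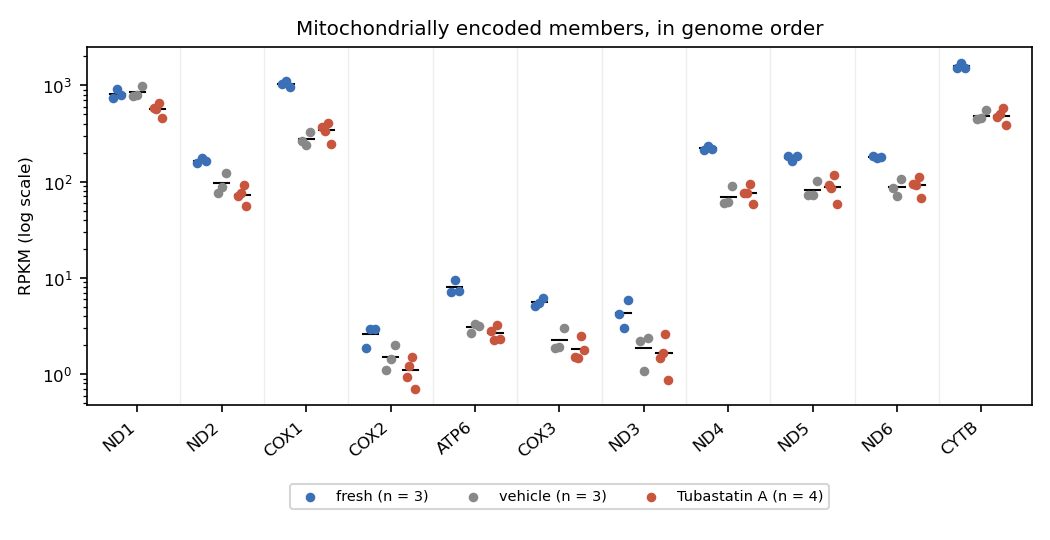
RPKM (log scale) of the 11 mitochondrially encoded members in each library, in their order along the mitochondrial genome, with a bar at each group mean. Fresh libraries lie above the cultured ones for every gene except ND1, where fresh and vehicle overlap, and COX2, where the lowest fresh library overlaps vehicle.

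The balance between the 2 genomes was read from the ratio of summed mitochondrial to summed nuclear RPKM, which also cancels library scaling. Summed mitochondrial RPKM were 4173 ± 266 in fresh, 1955 ± 295 in vehicle and 1725 ± 302 in Tubastatin A cells, and summed nuclear RPKM 5817 ± 1496, 7946 ± 932 and 5913 ± 359.7. The ratio was 0.864, 0.597 and 0.759 in the fresh libraries, 0.260, 0.213 and 0.266 in vehicle and 0.319, 0.294, 0.354 and 0.209 in Tubastatin A. Every cultured library lay below every fresh one, and the vehicle and Tubastatin A libraries overlapped. The difference in mean log2 ratio was -1.58 between vehicle and fresh and 0.23 between Tubastatin A and vehicle. With the 5 mitochondrial genes that have no chromosome 1 copy the first was -1.34, and without ND1 it was -2.08. By complex, summed nuclear RPKM of complex II was higher in vehicle by the largest ratio of the 5 complexes, at 369.5 ± 56.5 in fresh and 652 ± 31.9 in vehicle. It stood at 416 ± 28.8 in Tubastatin A cells, with no overlap between vehicle and either other group. Most of the rise of this sum in vehicle came from Sdhd, so the sum does not stand for the complex as a whole. Log2 differences of its 4 subunits in vehicle ran from -0.31 for Sdha to 1.66 for Sdhd.

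**Figure D4:**
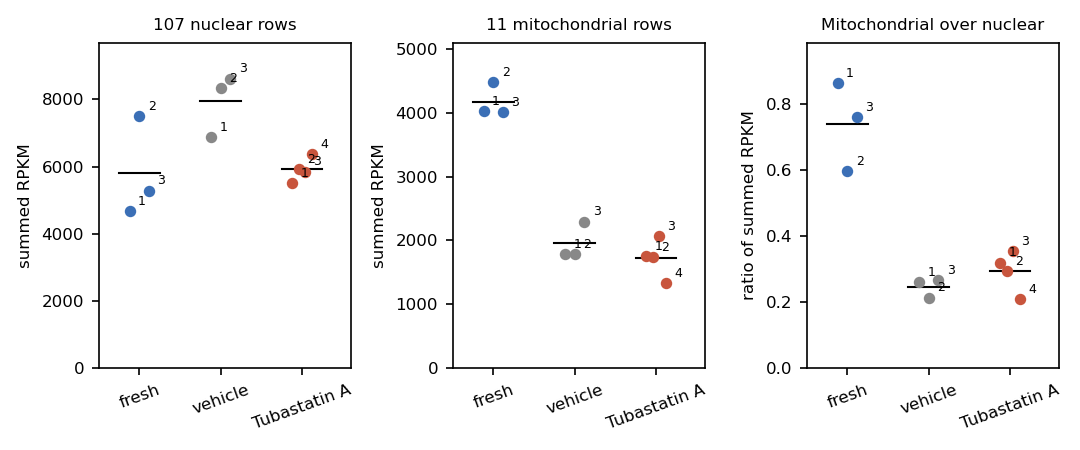
Summed RPKM of the 107 nuclear rows, summed RPKM of the 11 mitochondrial rows and their ratio in each library, numbered by replicate, with a bar at each group mean. Fresh replicate 2 has the highest nuclear sum of its group, and the ratio of every cultured library is at most 0.354 while every fresh library is at least 0.597.

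Complex I takes electrons from NADH. The counts by complex and by list below stand beside those over all 12803 genes. In vehicle 32.0% of these were higher and 35.0% lower, and with Tubastatin A against vehicle 29.6% and 29.7%. With equal sums 6333 were higher and 2917 lower in vehicle, and 4463 and 3357 with Tubastatin A. Of its 37 nuclear subunit rows, 24 were higher, 4 lower and 9 not called, with a median log2 difference of 0.54, in vehicle against fresh, and 2 were higher, 19 lower and 16 not called, with a median log2 difference of -0.45, in Tubastatin A against vehicle. With equal sums 33 were higher in vehicle (median 1.15) and no lower call remained. The core subunits, which carry the flavin and the iron-sulfur clusters, counted 6 of 7 higher in vehicle and 7 of 7 lower with Tubastatin A, 6 of 7 when libraries were scaled to equal sums. Ndufv1, the NADH-binding flavoprotein, showed no call in vehicle (log2 difference 0.18, adjusted p = 0.215) and was lower with Tubastatin A, with a log2 difference of -0.72 (adjusted p = 0.000257). A higher call of Ndufv1 in vehicle was made without fresh replicate 2 (adjusted p = 0.0194).

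Ndufs3 had the lowest log2 difference of complex I with Tubastatin A, -1.03 (SE 0.14, adjusted p = 7.66e-05), at 29.5 ± 6.47 RPKM in fresh, 49.1 ± 5.99 in vehicle and 23.4 ± 2.01 in Tubastatin A cells. A processed copy, Gm12251, matches 75.7% of its transcript at 98.6% identity, so its level is uncertain. Ndufs1, an iron-sulfur subunit, stood at 13.9 ± 1.27 RPKM in fresh, 19.0 ± 1.86 in vehicle and 14.8 ± 1.47 in Tubastatin A cells, and was called higher in vehicle (log2 difference 0.43) and lower with Tubastatin A (log2 difference -0.34, adjusted p = 0.0242). The call with Tubastatin A was also lost with equal sums (log2 difference -0.24, adjusted p = 0.132). The call of Ndufs1 with Tubastatin A was lost when any 1 of these libraries was left out: vehicle replicate 1, vehicle replicate 2 and Tubastatin A replicate 3 (adjusted p between 0.0543 and 0.118).

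Of the 30 rows of accessory subunits, 18 were higher, 4 lower (Ndufb11, Ndufb2, Ndufv3 and the less abundant Ndufa13 row) and 8 not called, with a median log2 difference of 0.60, in vehicle and 2 were higher (Ndufa1 and the less abundant Ndufa13 row), 12 lower and 16 not called, with a median log2 difference of -0.33, with Tubastatin A. With equal sums 26 were higher in vehicle (median 1.21), and the log2 differences of the 4 that were lower became 0.14 for Ndufb11, -0.28 for Ndufb2, 0.06 for Ndufv3 and -0.47 for the less abundant Ndufa13 row, with no call. Ndufs6, needed late in assembly, rose by 1.35 (SE 0.21, adjusted p = 0.000134) in vehicle and fell to 37.7 ± 5.63 RPKM with Tubastatin A (log2 difference -0.96, adjusted p = 0.00137). Ndufb3 and Ndufb7, both in the membrane arm, rose by 1.29 and 1.29 on the log2 scale in vehicle and fell by 0.64 and 0.79 with Tubastatin A. Ndufa8 took another course, at 56.2, 91.0 and 51.4 RPKM across fresh replicates, 117, 138 and 144 across vehicle and 128, 138, 146 and 154 across Tubastatin A replicates. Its vehicle and Tubastatin A libraries overlapped and both lay above the fresh libraries, with log2 differences of 1.04 (adjusted p = 0.000481) and, for Tubastatin A against vehicle, 0.09 (adjusted p = 0.695). Ndufa10 was similar, with 33.0 ± 8.24 RPKM in fresh, 54.2 ± 2.58 in vehicle and 59.7 ± 4.03 in Tubastatin A cells. Ndufab1, the mitochondrial acyl carrier protein that also sits in complex I, rose from 9.23 ± 2.64 to 19.4 ± 0.956 RPKM and was lower, at 13.6 ± 0.402, with Tubastatin A.

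Few complex I rows were called lower in vehicle, and those calls were lost with equal sums. Ndufb2 was at 3.04 ± 0.541 RPKM in fresh, 1.65 ± 0.524 in vehicle and 0.892 ± 0.105 in Tubastatin A cells, and lower in vehicle, with a log2 difference of -0.62 (adjusted p = 0.00293), and again with Tubastatin A, with -0.47 (adjusted p = 0.0130). The lower call of Ndufb2 with Tubastatin A was lost without vehicle replicate 3 (adjusted p = 0.0729). Ndufa13, also known as GRIM-19, has 2 rows. The abundant row stood at 56.4 ± 16.4 RPKM in fresh, 55.6 ± 6.83 in vehicle and 44.9 ± 3.02 in Tubastatin A cells with no call, and the less abundant at 2.09 ± 0.517 RPKM in fresh, 1.02 ± 0.611 in vehicle and 3.27 ± 0.696 in Tubastatin A cells, lower in vehicle (log2 difference -0.65, adjusted p = 0.0260) and higher with Tubastatin A (log2 difference 1.12, adjusted p = 0.000845). Which transcripts each row counts is not given in the sources used here, and the less abundant row is 1 of 4 member rows whose values did not return whole reads. The lower call of the less abundant Ndufa13 row in vehicle was lost when any 1 of these libraries was left out: fresh replicate 2, fresh replicate 3 and vehicle replicate 2 (adjusted p between 0.0634 and 0.122).

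Assembly factors of complex I hold its parts together while it is built and are not in the finished enzyme. Of 8, 7 were higher and 1 not called, with a median log2 difference of 1.05, in vehicle, and 1 was higher (Ndufaf3), 4 lower (Ndufaf1, Ndufaf6, Ndufaf4 and Ndufaf8) and 3 not called, with a median log2 difference of -0.47, with Tubastatin A. Ndufaf6 was at 10.5, 15.0 and 7.82 RPKM across fresh replicates, 30.3, 32.0 and 29.8 across vehicle and 19.8, 20.1, 19.3 and 21.1 across Tubastatin A replicates, with vehicle above the other groups and Tubastatin A above fresh. Its log2 differences were 1.43 (SE 0.17, adjusted p = 1.53e-05) in vehicle and -0.59 (adjusted p = 0.00805) with Tubastatin A. Ndufaf1, part of the intermediate assembly complex, went from 11.1 ± 2.03 to 27.4 ± 2.76 and 16.1 ± 1.08 RPKM, and Ndufaf4 from 12.6 ± 3.41 to 27.1 ± 1.92 and 15.6 ± 0.525. Ndufaf7, a mitochondrial methyltransferase, rose by 0.69 (adjusted p = 0.000111) in vehicle, and its log2 difference with Tubastatin A was -0.04 (adjusted p = 0.733), or 0.07 with equal sums. Ndufaf3, the partner of Ndufaf4, differed from it: its log2 difference in vehicle was -0.26 (adjusted p = 0.202), which turned to 0.29 with equal sums, and with Tubastatin A 0.54 (adjusted p = 0.0126), a higher level. The call of Ndufaf3 was lost without vehicle replicate 1 (adjusted p = 0.0582).

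Complex II, succinate dehydrogenase, is also an enzyme of the citric acid cycle. Of its 4 subunits and 4 assembly factors, 6 were higher, 1 lower (Sdha) and 1 not called, with a median log2 difference of 0.70, in vehicle, and 5 were lower (Sdhaf4, Sdhb, Sdhaf1, Sdhd and Sdha) and 3 not called, with a median log2 difference of -0.42, with Tubastatin A. With equal sums 7 were higher in vehicle (median 1.32) and 4 lower with Tubastatin A, Sdhaf1 having lost its call. Sdhaf4, a chaperone for Sdha, had the highest log2 difference of the nuclear members in vehicle, 2.05 (SE 0.13, adjusted p = 6.48e-08). Its levels were 3.55, 3.80 and 2.69 RPKM across fresh replicates, 16.4, 17.4 and 16.9 across vehicle and 8.20, 8.64, 9.40 and 10.3 across Tubastatin A replicates, with no overlap between any of the 3 groups. The log2 difference was -0.82 (adjusted p = 0.000113) for Tubastatin A against vehicle and 1.23 (adjusted p = 3.37e-06) against fresh.

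The subunits of complex II did not move as 1 unit. Sdhd, a membrane anchor, was measured at 99.2, 144 and 83.5 RPKM across fresh replicates, 316, 353 and 347 across vehicle and 173, 184, 172 and 207 across Tubastatin A replicates. The groups did not overlap, with log2 differences of 1.66 (SE 0.19, adjusted p = 7.72e-06) in vehicle and -0.88 (adjusted p = 0.000964) with Tubastatin A. Sdhc, the other anchor, rose from 36.0 ± 6.94 to 66.5 ± 3.90 RPKM in vehicle (log2 difference 0.88, adjusted p = 0.000112), and its log2 difference with Tubastatin A was -0.06 (adjusted p = 0.693) at 63.6 ± 4.21 RPKM, or 0.06 with equal sums. Sdhb, the iron-sulfur subunit, was at 84.4 ± 23.6 RPKM in fresh, 114 ± 8.73 in vehicle and 74.6 ± 4.90 in Tubastatin A cells, called higher in vehicle (log2 difference 0.46, adjusted p = 0.0292) and lower with Tubastatin A (log2 difference -0.61, adjusted p = 0.00581). The call of Sdhb in vehicle was lost when any 1 of these libraries was left out: fresh replicate 1, fresh replicate 3, vehicle replicate 2 and vehicle replicate 3 (adjusted p between 0.0809 and 0.104). Sdha, the flavoprotein that oxidises succinate, was the exception, at 133, 124 and 135 RPKM across fresh replicates, 109, 109.9 and 95.4 across vehicle and 81.0, 75.3, 65.2 and 77.8 across Tubastatin A replicates. Its log2 difference was -0.31 (adjusted p = 0.0379) in vehicle, which turned to 0.28 with equal sums, and -0.48 (adjusted p = 0.00323) with Tubastatin A. The call of Sdha in vehicle was lost when any 1 of these libraries was left out: fresh replicate 3, vehicle replicate 1, vehicle replicate 2, vehicle replicate 3, Tubastatin A replicate 1, Tubastatin A replicate 2 and Tubastatin A replicate 4 (adjusted p between 0.0507 and 0.145).

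Complex III passes electrons from ubiquinol to cytochrome c. Of 9 nuclear subunits, 6 were higher and 3 not called, with a median log2 difference of 0.48, in vehicle, and 5 were lower (Uqcr11, Uqcr10, Uqcrq, Uqcrfs1 and Cyc1) and 4 not called, with a median log2 difference of -0.50, with Tubastatin A. With equal sums 9 of 9 were higher in vehicle (median 1.09). Against fresh, limma called 0 of the 9 in Tubastatin A cells, with 0 at an unadjusted p under 0.05 and 0 with voom, but 9 of 9 were called higher when libraries were scaled to equal sums. Cyc1, cytochrome c1, was measured at 80.2, 135 and 93.6 RPKM across fresh replicates, 185, 228 and 227 across vehicle and 105, 116, 106 and 122 across Tubastatin A replicates. Vehicle lay above both other groups, which overlapped, and the log2 differences were 1.07 (SE 0.18, adjusted p = 0.000234) in vehicle and -0.91 (SE 0.17, adjusted p = 0.000626) with Tubastatin A. Uqcr10, a small subunit, had the lowest log2 difference of the complex with Tubastatin A, -1.01 (adjusted p = 0.000898), and Uqcr11 followed at -0.78 (adjusted p = 0.00323). A copy, Gm16418, matches 38.4% of the Uqcr11 transcript at 98.8% identity, so its level is uncertain. Uqcrc2, a core protein, was called in neither comparison (log2 differences 0.17 and 0.03). A higher call of Uqcrc2 in vehicle was made without fresh replicate 2 (adjusted p = 0.00987). The higher call of Uqcrc1 in vehicle was lost without any 1 of 7 libraries (adjusted p between 0.0513 and 0.136). That of Uqcrfs1 was lost without any 1 of 4 (adjusted p between 0.0675 and 0.0845). The lower call of Uqcrq with Tubastatin A was lost without vehicle replicate 2 or 3 (adjusted p between 0.0765 and 0.0811). The mitochondrially encoded partner of these subunits, CYTB, fell in vehicle while Cyc1 rose.

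Cycs, the carrier cytochrome c, which also takes part in apoptosis once released from mitochondria, stood at 26.2, 58.5 and 39.7 RPKM across fresh replicates, 67.5, 73.8 and 74.7 across vehicle and 33.5, 37.9, 33.3 and 38.7 across Tubastatin A replicates. Its vehicle libraries were above the Tubastatin A libraries and above every fresh library, with log2 differences of 0.85 (SE 0.22, adjusted p = 0.00440) and -0.99 (SE 0.20, adjusted p = 0.00137). Copies elsewhere in the genome match 33.7% of its transcript, so some of its reads are uncertain.

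Complex IV, cytochrome c oxidase, reduces oxygen to water. Of its 17 nuclear subunit rows, 5 were higher (Cox7b, Ndufa4, Cox6b1, Cox5a and Cox7c), 5 lower (Cox4i2, Cox6b2, Cox7a1, Cox8b and Ndufa4l2) and 7 not called, with a median log2 difference of 0.33, in vehicle, and 1 was higher (Cox6b2), 6 lower and 10 not called, with a median log2 difference of -0.09, with Tubastatin A. The shares of 29.4% higher and 29.4% lower in vehicle were near those of all genes (32.0% and 35.0%). With Tubastatin A 35.3% were lower, near the 29.7% of all genes, and 5.88% higher, against 29.6%. With equal sums 11 were higher and 4 lower in vehicle (median 0.93), and 3 higher and 5 lower with Tubastatin A. Ndufa4, once counted to complex I and now to complex IV, was measured at 25.7, 53.7 and 32.0 RPKM across fresh replicates, 102, 126 and 136 across vehicle and 128, 149, 152 and 166 across Tubastatin A replicates. Both cultured groups lay above fresh, with log2 differences of 1.74 (SE 0.23, adjusted p = 2.92e-05) in vehicle and 0.30 (adjusted p = 0.249) for Tubastatin A against vehicle. Cox6b1, which faces the intermembrane space, did likewise, at 72.4, 137 and 92.8 RPKM across fresh replicates, 191, 249 and 261 across vehicle and 194, 217, 230.0 and 232 across Tubastatin A replicates. Its log2 difference was 1.24 (adjusted p = 0.00027) in vehicle and -0.09 (adjusted p = 0.728) with Tubastatin A, or 0.03 with equal sums.

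Cox7c and Cox7b, small membrane subunits, followed the larger group instead. Cox7c stood at 43.6, 78.4 and 52.1 RPKM across fresh replicates, 77.5, 100.5 and 108 across vehicle and 33.0, 36.9, 41.0 and 37.8 across Tubastatin A replicates, and every Tubastatin A library was below every vehicle and fresh library. The log2 difference was 0.73 (adjusted p = 0.00598) in vehicle and -1.32 (adjusted p = 7.59e-05) with Tubastatin A. Against fresh it was -0.59 (adjusted p = 0.0147), which turned to 0.12 with equal sums, and copies match 32.9% of the Cox7c transcript. Cox7b went from 36.2 ± 11.8 to 72.9 ± 15.3 RPKM in vehicle and 34.9 ± 4.25 with Tubastatin A, and Cox5a, which with Cox5b binds the core, from 27.1 ± 8.37 to 53.6 ± 6.27 and 32.2 ± 1.85. The lower call of Cox8a with Tubastatin A was lost without any 1 of 7 libraries (adjusted p between 0.0545 and 0.168). That of Cox7a2 was lost without any 1 of 6 (0.0547 to 0.136) and that of Cox5b without any 1 of 4 (0.0517 to 0.107). A copy matches 45.1% of the Cox5b transcript.

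Several subunits of complex IV exist as pairs of isoforms, 1 broadly expressed and 1 found in heart, muscle, lung or testis. In each pair the broad isoform was the more abundant, with group means from 37.1 to 359.7 RPKM, against 0.0847 to 3.25 for the other. Of the 6 restricted isoforms, 5 were called lower in vehicle than in fresh cells, and 4 with equal sums, without Cox6b2 (log2 difference -0.55, adjusted p = 0.104). Ndufa4l2, a paralogue of Ndufa4 that responds to low oxygen, was at 1.63, 4.30 and 3.82 RPKM across fresh replicates, 0.0381, 0.0853 and 0.163 across vehicle and 0.146, 0.159, 0.121 and 0.258 across Tubastatin A replicates, with a log2 difference of -1.89 (SE 0.20, adjusted p = 5.64e-06). Cox4i2, the isoform of lung and of oxygen-sensing cells, was at 1.16, 1.42 and 1.10 RPKM across fresh replicates, 0.212, 0.118 and 0.170 across vehicle and 0.651, 0.419, 0.336 and 0.154 across Tubastatin A replicates, with a log2 difference of -0.93 (adjusted p = 2.23e-05). Both cultured groups lay below fresh for these 2 genes.

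Markers of pericytes, in which Ndufa4l2 and Cox4i2 are known to be high, moved with them: Rgs5 was at 7.69 ± 1.64 RPKM in fresh, 0.0599 ± 0.00869 in vehicle and 0.109 ± 0.0462 in Tubastatin A cells and Kcnj8 at 1.88 ± 0.409 RPKM in fresh, 0.120 ± 0.0682 in vehicle and 0.205 ± 0.101 in Tubastatin A cells. The sum of 8 pericyte and smooth muscle markers, a list added after values were seen, was 205 to 251 RPKM in fresh, 175 to 239.6 in vehicle and 13.5 to 14.7 in 3 Tubastatin A libraries, with replicate 2 at 64.2. Of these markers 7 of 8 were called lower in vehicle, and the sum in fresh and vehicle cells was mostly Acta2 (212 ± 26.1 and 212 ± 33.7 RPKM in fresh and vehicle). With Tubastatin A against vehicle 6 of the 8 had positive and 2 negative log2 differences (median 0.05). Acta2 had the lowest of them, -3.59, so the sum does not stand for most of this list. The part of such cells in the values of both genes was not tested. A higher call of Cox4i2 with Tubastatin A was made without Tubastatin A replicate 4 (adjusted p = 0.0169).

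Cox7a1, the muscle and heart partner of Cox7a2, fell from 1.96 ± 0.605 to 0.563 ± 0.0531 RPKM in vehicle (log2 difference -0.90, adjusted p = 6.40e-05). Cox8b, the muscle and heart form of Cox8a, rested on few reads, and its levels were 1.91, 0.376 and 1.07 RPKM across fresh replicates, 0.0299, 0.194 and 0.0299 across vehicle and 0.0299, 1.11, 0.123 and 0.336 across Tubastatin A replicates, the lowest of which stand for no read. The log2 difference of Cox8b in vehicle was -0.90 (adjusted p = 0.0121), a call that was lost without fresh replicate 1 (adjusted p = 0.052). Cox6b2, the testis form of Cox6b1, was at 1.31, 2.96 and 0.872 RPKM across fresh replicates, 0.489, 0.569 and 0.785 across vehicle and 1.72, 1.68, 2.43 and 1.95 across Tubastatin A replicates, lower in vehicle (log2 difference -0.68, adjusted p = 0.0177) and higher with Tubastatin A than in vehicle (log2 difference 0.86, adjusted p = 0.00374). The call of Cox6b2 in vehicle was lost without vehicle replicate 1 (adjusted p = 0.0582). Cox6a2, the muscle and heart form of Cox6a1, was called in neither comparison, and reached 3.07 RPKM in Tubastatin A replicate 2, the library with 427 RPKM of myofibre markers, against 0.974 to 1.16 in the other 3.

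**Figure D5:**
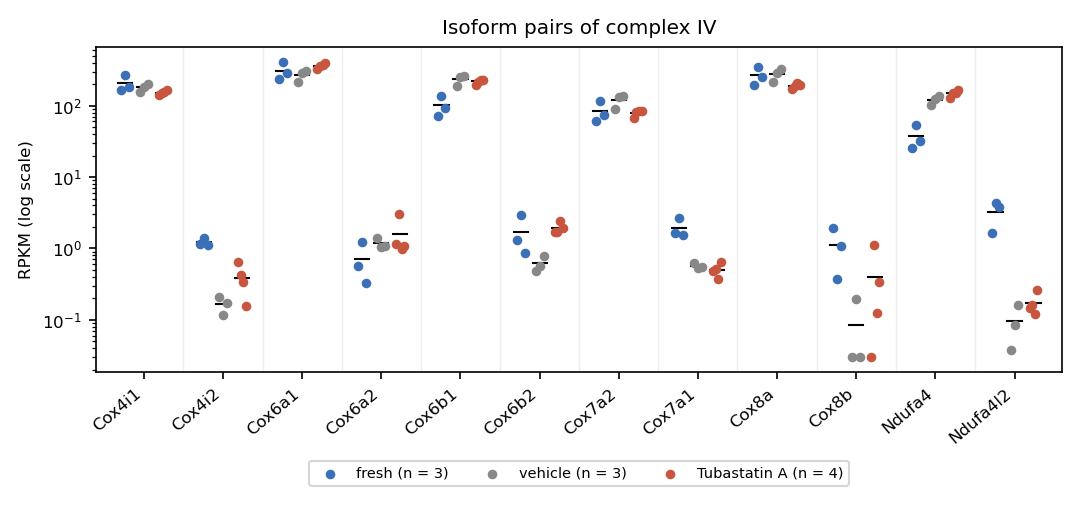
RPKM (log scale) of 6 pairs of complex IV isoforms in each library, the broadly expressed form to the left, with a bar at each group mean. The right-hand form of each pair lies below the left-hand form in every library, and Ndufa4 and Ndufa4l2 move in opposite directions between fresh and cultured cells.

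Assembly of complex IV needs heme, copper and chaperones for the mitochondrially encoded subunits. Of 10 members that assemble complex IV or join it to other complexes, 4 were higher (Cox18, Cox10, Cox17 and Cox15), 2 lower (Cox20 and Cox16) and 4 not called, with a median log2 difference of 0.13, in vehicle, and 1 was higher (Cox19), 3 lower (Cox18, Cox10 and Cox15) and 6 not called, with a median log2 difference of -0.11, with Tubastatin A. Shares were 40% higher and 20% lower in vehicle, and 10% and 30% with Tubastatin A, the last near the 29.7% of all genes. With equal sums 7 were higher and 1, Cox20, lower in vehicle (median 0.73). The heme synthesis enzymes rose together in vehicle: Cox10 went from 7.80 ± 1.16 to 16.3 ± 1.40 RPKM (log2 difference 0.98, adjusted p = 2.22e-05) and Cox15 from 7.33 ± 2.73 to 18.4 ± 1.06 (log2 difference 1.27, adjusted p = 6.58e-05). With Tubastatin A they were at 9.41 ± 0.481 and 12.4 ± 0.955 RPKM, both called lower. The call of Cox15 with Tubastatin A was lost with equal sums (log2 difference -0.45, adjusted p = 0.0643). The same call of Cox15 with Tubastatin A was lost without vehicle replicate 2 (adjusted p = 0.0592). Cox18, which inserts the tail of COX2 into the membrane, was at 4.82, 6.07 and 3.67 RPKM across fresh replicates, 8.71, 9.67 and 10.4 across vehicle and 3.32, 3.39, 4.24 and 3.02 across Tubastatin A replicates. It rose by 0.87 (adjusted p = 0.000481) in vehicle and fell with Tubastatin A, with a log2 difference of -1.24 (SE 0.15, adjusted p = 2.59e-05) and no overlap between vehicle and Tubastatin A.

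Cox20, another chaperone of COX2, moved the other way in vehicle. Its levels were 5.44, 7.02 and 4.70 RPKM across fresh replicates, 1.35, 0.872 and 0.884 across vehicle and 0.526, 0.630, 1.13 and 1.12 across Tubastatin A replicates, with every cultured library below every fresh one. The log2 difference was -1.72 (SE 0.17, adjusted p = 3.32e-06) in vehicle and -0.14 (adjusted p = 0.468) between Tubastatin A and vehicle. Of the copper proteins, Cox19 was higher with Tubastatin A (log2 difference 0.65, adjusted p = 0.00904) at 11.1 ± 1.21 RPKM against 6.78 ± 1.33 in vehicle, and Cox17 stood at only 0.258 ± 0.0770 RPKM in fresh and 0.651 ± 0.0674 in vehicle, where it was called higher.

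Complex V makes ATP. Of its 17 nuclear members, 10 were higher and 7 not called, with a median log2 difference of 0.59, in vehicle, and 11 were lower and 6 not called, with a median log2 difference of -0.53, with Tubastatin A. With equal sums 17 of 17 were higher in vehicle (median 1.20), and 10 lower and 1 higher with Tubastatin A. The catalytic F1 head had 5 of 5 members lower with Tubastatin A and 2 of 5 higher in vehicle. Atp5b, the catalytic beta subunit and the most abundant nuclear member in fresh cells, stood at 510.4 ± 105 RPKM in fresh, 472 ± 50.3 in vehicle and 348 ± 27.5 in Tubastatin A cells, with log2 differences of -0.10 (adjusted p = 0.659) in vehicle, which turned to 0.50 with equal sums, and -0.44 (adjusted p = 0.0457) with Tubastatin A. The latter was lost with equal sums (log2 difference -0.32, adjusted p = 0.0590) and without any 1 of vehicle replicates 2 and 3, fresh replicate 3 and the 4 Tubastatin A libraries (adjusted p between 0.055 and 0.156). Atp5e, the small epsilon subunit, had the lowest log2 difference of all nuclear members with Tubastatin A. It was measured at 21.0, 32.0 and 23.4 RPKM across fresh replicates, 30.8, 40.8 and 44.4 across vehicle and 8.42, 9.19, 10.2 and 8.28 across Tubastatin A replicates, and every Tubastatin A library was below every fresh and vehicle library. Log2 differences were 0.59 (adjusted p = 0.00927) in vehicle, -1.97 (SE 0.16, adjusted p = 9.99e-07) with Tubastatin A and -1.38 (adjusted p = 1.27e-05) for Tubastatin A against fresh.

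The c ring, which turns as protons pass, is built from a single mature protein encoded by 3 genes. Atp5g1 was at 14.7, 25.3 and 17.0 RPKM across fresh replicates, 45.0, 54.6 and 59.1 across vehicle and 18.2, 21.5, 19.7 and 21.9 across Tubastatin A replicates. Vehicle stood above the other groups, which overlapped, with log2 differences of 1.46 (SE 0.18, adjusted p = 1.67e-05) in vehicle and -1.33 (SE 0.17, adjusted p = 3.15e-05) with Tubastatin A. Atp5g2 was at 13.5, 21.1 and 17.8 RPKM across fresh replicates, 30.4, 36.3 and 43.1 across vehicle and 11.5, 12.3, 15.0 and 11.3 across Tubastatin A replicates, with 1.03 (adjusted p = 0.000245) and -1.47 (adjusted p = 1.26e-05). Atp5g3, the most abundant of the 3, had smaller differences, at 96.4 ± 33.4 RPKM in fresh, 142 ± 28.4 in vehicle and 92.8 ± 8.63 in Tubastatin A cells, with 0.59 (adjusted p = 0.0354) and -0.59 (adjusted p = 0.0294). The call of Atp5g3 in vehicle was lost when any 1 of these libraries was left out: fresh replicate 1, fresh replicate 3, vehicle replicate 2 and vehicle replicate 3 (adjusted p between 0.0887 and 0.133). The call of Atp5g3 with Tubastatin A was lost when any 1 of these libraries was left out: vehicle replicate 2, vehicle replicate 3, Tubastatin A replicate 1 and Tubastatin A replicate 2 (adjusted p between 0.0621 and 0.126). By mean level the order was Atp5g3, Atp5g1 and Atp5g2 in every group.

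Members of the membrane part of complex V that rose in vehicle without a call for Tubastatin A included Atp5mpl, with 17.1 ± 4.61 RPKM in fresh, 45.3 ± 9.31 in vehicle and 34.5 ± 4.13 in Tubastatin A cells and log2 differences of 1.37 (adjusted p = 6.55e-05) and -0.37 (adjusted p = 0.106). A lower call of Atp5mpl with Tubastatin A was made without vehicle replicate 1 (adjusted p = 0.0358). Atp5k rose from 19.3 ± 6.23 to 53.2 ± 11.5 RPKM (log2 difference 1.44, adjusted p = 0.000106) and was called lower, at 33.5 ± 3.82, with Tubastatin A. The lower call of Atp5k with Tubastatin A was lost when any 1 of these libraries was left out: vehicle replicate 2, vehicle replicate 3 and Tubastatin A replicate 1 (adjusted p between 0.0556 and 0.0891).

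Promoters were looked at for sites of NRF1 (nuclear respiratory factor 1), the ETS factor GABP and YY1, all known to act on respiratory chain genes. RefSeq promoter windows of build GRCm38.p6, from 250 bases before to 50 bases after the start, were matched for 87 of the 106 nuclear symbols and for 10119 genes of the table. The palindrome of NRF1, which is GCATGCGC with GC before it and reads the same on both strands, was found in 7 of the 87 (8.05%) and in 2.25% of the 10119. GCATGCGC alone, on either strand and also where the palindrome holds it, was in 13 (14.9%, against 5.92%). CCGGAAGT of the ETS family was in 9 (10.3%, against 9.04%) and AAGATGGC of YY1 in 13 (14.9%, against 5.26%), both on either strand. In 5 of the 7 promoters with the palindrome it lies before the start, and these are printed from 60 bases before it to 40 bases after it, or to the start where that is nearer, with the palindrome in capitals, 5′ to 3′ on the strand of the gene.
Ndufaf4 (chr4:24897910-24898019, plus strand): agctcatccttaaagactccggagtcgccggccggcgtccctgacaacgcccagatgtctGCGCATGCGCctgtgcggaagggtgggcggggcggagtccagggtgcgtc
Atp5k (chr5:108434400-108434509, minus strand): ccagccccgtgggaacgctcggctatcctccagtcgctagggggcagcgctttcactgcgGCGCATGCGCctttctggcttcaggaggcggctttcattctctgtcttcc
Atp5g2 (chr15:102671048-102671149, minus strand): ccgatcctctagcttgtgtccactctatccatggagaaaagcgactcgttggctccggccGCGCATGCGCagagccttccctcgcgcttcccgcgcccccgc
Ndufa11 (chr17:56717642-56717751, plus strand): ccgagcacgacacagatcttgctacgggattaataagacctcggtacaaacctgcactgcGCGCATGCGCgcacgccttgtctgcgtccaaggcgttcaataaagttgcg
Cox6a1 (chr5:115349071-115349180, minus strand): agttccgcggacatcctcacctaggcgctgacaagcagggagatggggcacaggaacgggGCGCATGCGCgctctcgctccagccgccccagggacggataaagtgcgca
Ndufaf4, Atp5k and Atp5g2 rose in vehicle and fell with Tubastatin A, Ndufa11 (named after its values were seen) rose in vehicle with no call for Tubastatin A, and Cox6a1 was called in neither. Of the 13 members with GCATGCGC, 10 were called higher in vehicle and 7 lower with Tubastatin A. Of the 74 without it, 42 were higher and 10 lower in vehicle, and 5 higher and 39 lower with Tubastatin A. Median log2 differences were 0.93 with and 0.58 without it in vehicle, and -0.61 and -0.46 with Tubastatin A. A match of letters is a description and shows no binding.

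Other genes that serve the respiratory chain were counted from lists outside the rule. Of 34 further assembly factors, 27 were higher and 3 lower (Higd2a, Surf1 and Ttc19), with a median log2 difference of 0.85, in vehicle, and 2 were higher (Surf1 and Ttc19) and 17 lower, with a median log2 difference of -0.39, with Tubastatin A. Taco1, which activates translation of COX1, rose from 1.15 ± 0.338 to 8.37 ± 1.20 RPKM in vehicle (log2 difference 2.13, adjusted p = 3.25e-07), with a log2 difference of -0.12 (adjusted p = 0.517) for Tubastatin A. Foxred1, a factor for complex I, had the lowest with Tubastatin A, from 11.2 ± 1.60 to 2.55 ± 0.220 RPKM (log2 difference -1.77, adjusted p = 2.67e-07). Atpaf2, a chaperone of the F1 head, went from 12.6 ± 2.40 to 41.4 ± 2.27 and 16.7 ± 1.05 RPKM.

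Genes that copy and transcribe mitochondrial DNA were mostly higher in vehicle, where the mitochondrial transcripts were lower. Of 16, 10 were higher and 1 lower (Mterf3), with a median log2 difference of 0.62, in vehicle, and 1 was higher (Mterf4) and 9 lower, with a median log2 difference of -0.43, with Tubastatin A. Polrmt, the mitochondrial RNA polymerase, rose from 5.96 ± 1.19 to 17.3 ± 1.16 RPKM (log2 difference 1.40, adjusted p = 2.85e-06), Twnk, the helicase, from 4.23 ± 0.868 to 18.0 ± 1.83, and Tefm, the elongation factor, from 3.40 ± 0.788 to 12.5 ± 1.01. With equal sums the log2 difference of Mterf3 in vehicle turned from -0.44 to 0.12 with no call. Mgme1, a nuclease for mitochondrial DNA ends, was lower with Tubastatin A, at 2.68 ± 0.413 RPKM against 12.9 ± 0.257 (log2 difference -1.92, adjusted p = 9.57e-08). Of 15 genes of mitochondrial RNA processing and stability, 12 were higher and 1 lower (Mtpap), with a median log2 difference of 0.79, in vehicle, and 8 were lower, with a median log2 difference of -0.29, with Tubastatin A. With equal sums that of Mtpap in vehicle turned from -0.33 to 0.23. Lrpprc, which stabilises mitochondrial messenger RNAs, was at 5.40 ± 1.48 RPKM in fresh, 14.4 ± 1.15 in vehicle and 18.2 ± 1.77 in Tubastatin A cells, and Supv3l1, a helicase of RNA decay, at 6.09 ± 1.30 RPKM in fresh, 17.8 ± 1.15 in vehicle and 7.48 ± 0.299 in Tubastatin A cells.

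Of 13 regulators of mitochondrial biogenesis, 3 were higher (Esrra, Gabpb2 and Ppargc1b) and 7 lower, with a median log2 difference of -0.41, in vehicle, and 1 was higher (Ppargc1a) and 4 lower (Gabpb2, Ppargc1b, Pprc1 and Yy1), with a median log2 difference of -0.01, with Tubastatin A. Shares called lower were 53.8% in vehicle and 30.8% with Tubastatin A, the latter near the 29.7% of all genes. With equal sums the counts became 4 higher and 4 lower (median 0.06) and 5 higher and 3 lower (median 0.11), and Pprc1 in vehicle turned from -0.53 to 0.06. The coactivator Ppargc1b was at 2.35 ± 1.49 RPKM in fresh, 6.67 ± 0.232 in vehicle and 2.75 ± 0.271 in Tubastatin A cells, higher in vehicle (log2 difference 1.29, adjusted p = 0.000495) and lower with Tubastatin A (log2 difference -1.04, adjusted p = 0.00185). Gabpb1, a subunit of GABP, fell in vehicle from 33.1 ± 7.68 to 8.40 ± 1.15 RPKM (log2 difference -1.84, adjusted p = 1.94e-06), and Myc, a general activator of growth genes, had a log2 difference of -1.95 (adjusted p = 9.25e-06). Of 18 citric acid cycle genes, 8 were higher and 4 lower (Idh2, Ogdh, Pcx and Pdhb), with a median log2 difference of 0.17, in vehicle, or 14 and 1 with equal sums, where Idh2 turned to 0.26, and 2 were higher (Pcx and Pdhb) and 6 lower, with a median log2 difference of -0.27, with Tubastatin A. The 33.3% lower with Tubastatin A was near the 29.7% of all genes, and 11.1% were higher. Citrate synthase, Cs, rose from 34.2 ± 6.99 to 73.8 ± 4.02 RPKM in vehicle (log2 difference 1.10, adjusted p = 2.26e-05), while Idh2, the mitochondrial NADP isocitrate dehydrogenase, was lower with Tubastatin A, at 28.9 ± 1.77 RPKM against 116 ± 8.89 (log2 difference -1.97, adjusted p = 4.29e-08). The lower call of Idh2 in vehicle was lost when any 1 of these libraries was left out: vehicle replicate 1 and vehicle replicate 3 (adjusted p between 0.0616 and 0.0738).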

How the data were processed

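RNA of 10 libraries was analysed: 3 fresh, 3 vehicle and 4 Tubastatin A, grouped by the sample labels. The submitters' processing notes name mm10 as build and, as tools, STAR, Trim Galore, edgeR, Subread and featureCounts, all without version. Per the labels, SMART-Seq v4 was used on 5 ng of RNA. The authors deposited 1 table of RPKM values, and 0 columns belonged to no sample. Multiplying the deposited RPKM by gene length and a factor per library returned whole reads (within 0.05) in every library for 95.6% of 12803 rows, and values under 1 read were taken as 0 reads.

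Log2(RPKM + 1) of all 12803 rows was fitted with limma 3.58.1 in R 4.3.3, with a variance trend and 1 model for the 3 groups. P-values were adjusted (Benjamini-Hochberg) over all rows, and rows under 0.05 are called. Differences and SEs are on the log2(RPKM + 1) scale, which understates the change of low genes. Levels are mean ± SD over 3, 3 and 4 libraries. The fit was tested on simulated data. Each replicate is 1 animal. Copies were searched in GENCODE M21 transcripts with BLAST 2.17.0 (at least 98% identity over 100 bases). Of 105 nuclear genes compared, 12 had copies over at least 30% of the transcript. Python 3.11.15 was used with pandas 2.3.3, numpy 2.4.6, matplotlib 3.10.9 and scipy 1.17.1. Promoter sequences are from RefSeq.

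The members and lists were chosen with earlier results of these data known. The values of 1 member that the naming rule chose are not reported here. Named genes are the mitochondrial genes, a list of central subunits and isoforms, and, per comparison and class, up to 3 members with the lowest p and those with the highest and lowest log2 difference, and up to 3 genes per list with the lowest p (77 members). Where a count holds 5 or fewer genes they are named in brackets, after their values were seen. Alternatives were pseudocounts of 0.1 and 5 RPKM, a mean of at least 1 RPKM, 3 other scalings, fits on 2 groups, a replicate block, each library left out, voom of limma where mean recovered reads reached 10, and a 1.5-fold threshold. Ratios without ND1, with uncopied genes and from medians were added after seeing the data.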

Additional observations from a re-analysis of the deposited data

Results flagged for a closer look

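Of 81 groups of 4 Tubastatin A levels of named members and ratios, 4 held a library further from the others than Dixon's 95% critical value for 4 samples allows, and chance alone gives about 1 in 20. Atp5k stood at 27.8 RPKM in Tubastatin A replicate 1, where the other 3 lay between 35.0 and 35.7 RPKM. Cox6a2 stood at 3.07 RPKM in Tubastatin A replicate 2, where the other 3 lay between 0.974 and 1.16 RPKM. Ndufa10 stood at 65.7 RPKM in Tubastatin A replicate 4, where the other 3 lay between 57.3 and 58.4 RPKM. Ndufs1 stood at 12.6 RPKM in Tubastatin A replicate 3, where the other 3 lay between 15.4 and 15.8 RPKM. The 4 values fell in 4 different libraries, and the cause of each was not tested.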

How the results depend on the processing

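With equal RPKM sums, or sums without the mitochondrial genes, vehicle against fresh gave 5 nuclear rows lower, 1 mitochondrial row higher and 5 lower, Tubastatin A against vehicle 8 nuclear rows higher, and Tubastatin A against fresh 85 nuclear rows higher, 6 lower and 6 mitochondrial rows lower. Among the reported members that the naming rule chose, and Idh2, called with or without the scaling, both turned the sign of these log2 differences (second value where it differs): in vehicle against fresh Atp5b 0.50, Cox4i1 0.44, Cox7a2l 0.45, Idh2 0.26 (0.25) and Sdha 0.28, and in Tubastatin A against fresh Atp5a1 0.38, Atp5b 0.19 (0.18), Atp5g2 0.25, Atp5g3 0.72 (0.71), Cox18 0.25 (0.24), Cox5b 0.45, Cox7a2 0.69, Cox7a2l 0.50, Cox7b 0.70, Cox7c 0.12, Cycs 0.58, ND1 0.19, Ndufs3 0.40, Ndufv1 0.18, Sdhb 0.57, Uqcr10 0.56, Uqcrfs1 0.53 and Uqcrh 0.57. Further genes named above also turned sign with equal sums, among them Ndufb11 0.14, Ndufv3 0.06, Pprc1 0.06, Mterf3 0.12 and Mtpap 0.23 in vehicle against fresh. Fitted on 2 groups alone, 6 nuclear rows were lower in vehicle. With the 1.5-fold threshold, Tubastatin A against vehicle gave 3 nuclear rows higher and 0 mitochondrial rows lower, and against fresh 10 nuclear rows lower. The log2 ratio of both genomes in vehicle against fresh was -2.08 without ND1 and -1.99 from medians. Deviations of same-numbered libraries from their group means had correlations from -0.19 to 0.38, and those of differently numbered ones from -0.51 to 0.40. Deviations cancel within a group, so these values cannot show whether same-numbered libraries are paired. With the replicate block 0 mitochondrial rows were lower in Tubastatin A than in vehicle (ND1 lost its call), and the other counts moved by less than 1.5 times. For these the cause was not tested, apart from the stricter threshold and the changed sets of genes, which act by construction.

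Leaving out 1 library, nuclear rows in vehicle against fresh numbered 55 to 80 higher and 7 to 11 lower, and mitochondrial rows 8 to 10 lower. For Tubastatin A against vehicle they numbered 3 to 6 higher, 40 to 64 lower and 0 to 2 lower, and against fresh 24 to 54 higher, 15 to 26 lower and 10 to 11 lower. The ratio differences ran from -1.72 to -1.46, 0.13 to 0.39 and -1.49 to -1.19. With pseudocounts of 0.1 and 5 RPKM, median-ratio scaling and voom, each count stayed within 1.5 times. Groups of 3 and 4 animals, the unknown treatment of reads with several matches, and levels near 1 read limit what these values show.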
